A study of Mus musculus with 4 samples.

Results

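The regions described here are the 841 H3K27ac domains of at least 30 kb in G1E-ER4+E2 cells, chosen by their width alone from the 26384 peaks of the pooled peak list of these cells. H3K27ac, the acetylation of lysine 27 of histone H3, had been mapped by ChIP-seq in a pair of mouse erythroid cell populations of strain 129. G1E cells were derived from ES cells in which Gata1 had been knocked out, serve as a model for erythroid progenitors, lack GATA1 and were untreated (2 replicates). G1E-ER4 cells are a subline of G1E that was transduced with a virus expressing a hybrid of GATA1 and the estrogen receptor, and they received estradiol at 10 nM for a period of 24 h (2 replicates, called G1E-ER4+E2). The 2 populations therefore differ in the transgene and in the estradiol, and these cannot be told apart. Both are immortalized cultures, and nothing in the labels says whether the replicates were separate cultures, so the spread between them may be technical.

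H3K27ac is placed by acetyltransferases such as EP300 and CBP, and it marks nucleosomes at active promoters and active enhancers. Most stretches of this mark are a few kb long. Where many active elements lie close together, neighbouring stretches can run into 1 broad domain, and broad domains of this kind are known around genes that define a cell type. GATA1 is the transcription factor that drives erythroid maturation, and its return to G1E cells starts that maturation. A peak caller for broad marks adds to this picture, since it scores windows of fixed size and joins enriched windows over short gaps, so that the width of a domain depends on the joining as well as on the mark. In the deposited lists every start and end fell on a multiple of 200 bp, and no 2 peaks of a list lay closer than 800 bp.

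Tested DNA segments that lay inside the domains give a foothold in the sequence. The primers that the study used to amplify 4 TAL1-bound segments are printed as listed in its supplement, in lower case, because these segments stand for the extremes of what follows. TAL1_1020 (chromosome 12, 29502833 to 29503567, mm9) and TAL1_4769 (chromosome 9, 96141677 to 96142381) lay in a wide domain of G1E-ER4+E2 cells and outside every G1E peak. TAL1_3158 (chromosome 4, 106680676 to 106681320) and TAL1_2434 (chromosome 2, 28477395 to 28477920) lay in wide domains that G1E peaks covered from end to end.
TAL1_1020 forward: ccttgtgaacttggaagagtcggt
TAL1_1020 reverse: ataccagggagacaagaaagctgc
TAL1_4769 forward: ccagcagattgaaagtttagtgcagacg
TAL1_4769 reverse: atccacacccacccttgtacactt
TAL1_3158 forward: agagactctagatctgctagtcaggg
TAL1_3158 reverse: cccttcttgtcactccaggaagtc
TAL1_2434 forward: cttgggcacccaggacgaacttt
TAL1_2434 reverse: gttggttaagagtgatctgtactggccc

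The 841 domains were 3.19% of the pooled peaks and held 38.4 Mb, which was 19.2% of the 201 Mb covered by the list. Their width, which chose them, had a median of 39.6 kb (quartiles 34 and 52.8 kb), and 12 domains were 100 kb or wider. In the pooled G1E list 317 of 24332 peaks reached 30 kb (1.3%), with a median width of 37.2 kb, and they held 9.56% of the 140 Mb covered there. In the replicate lists taken alone this share was 10.5% and 11.4% for G1E-ER4+E2 replicates 1 and 2, and 7.76% and 5.52% for G1E replicates 1 and 2. Each replicate list held fewer wide domains than the pooled list of its cells. There were 408 in G1E-ER4+E2 replicate 1, 434 in replicate 2, 237 in G1E replicate 1 and 153 in replicate 2, so that both G1E-ER4+E2 replicates held more than both G1E replicates. The lists contain no read counts, the depth of each sample is unknown, and its part in these numbers was not tested. With 2 samples against 2 the smallest 2-sided exact permutation p is 0.333, so no test was made and the values are given as a description.

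The domains were not exclusively the strongest peaks of the list. Fold enrichment, a ratio that the authors' peak caller gave for each peak, had a median of 5.93 in the wide domains, from 1.31 to 25.7. Ranked within the pooled list, the median domain stood at percentile 81.5, 234 of the 841 stood at the 90th percentile or above, and 46 stood below the median of all peaks. The strongest were the domain on chromosome 10 from 61771801 to 61809600 (enrichment 25.7), the domain on chromosome 8 that holds the Zfpm1 segments (24.7) and another on chromosome 8 from 113438401 to 113485400 (20.7). The weakest were 3 domains on chromosome 1, from 93897201 to 93932200 (1.31), from 88637801 to 88671600 (1.62) and from 138160401 to 138192200 (1.65). The weak ones were 31.8 to 35 kb wide and the strong ones 37.8 to 53 kb. The G1E-ER4+E2 replicates covered at least 94% of each of the strong domains, while G1E-ER4+E2 replicates 1 and 2 covered 89.1% and 57.7% of the weakest domain in 4 peaks each.

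The wide G1E-ER4+E2 domains were unevenly spread over the chromosomes. Chromosome 1 held 111 of them, 6.06% of its 1832 peaks, and chromosome 12 held 66, or 4.85% of its peaks. Chromosome X held 2, or 0.325% of its 615 peaks, and chromosome Y held none among its 2 peaks. The order was different in the pooled G1E list. There chromosome 4 held the most wide domains, 33, and chromosomes 1, 12 and X held 25, 17 and 2. The closest other peak of the list lay at a median of 1.2 kb, and the lower quartile of this distance, 0.8 kb, was the smallest gap in the list. Another wide domain lay within 50 kb for 215 of the domains and within 10 kb for 108. The longest run of wide domains at most 50 kb apart had 4 members, 35.8, 30.4, 54 and 75 kb wide, and spanned 251.2 kb of chromosome 1 from 135495201 to 135746400. G1E peaks covered 82.7%, 94.7%, 64.8% and 46.1% of these 4 domains in turn.

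The replicates of G1E-ER4+E2 cells held nearly all of the length of the domains, though often in several pieces. Peaks of replicate 1 covered a median of 92.9% of a domain (lowest 37.3%) and peaks of replicate 2 covered 92.5% (lowest 38.3%), and the replicates differed by a median of 4.44 percentage points in the same domain. In all, 711 of 841 domains (84.5%) were at least 80% covered in both replicates, against 33% of all pooled peaks. Those replicates are part of the pool, so a high cover by them is partly given by the choice of the domains. This holds for all pooled peaks too. The domains also differ from these in width and enrichment, and the part of both in the contrast was not tested. A replicate peak that was itself at least 30 kb wide lay over 284 domains in both replicates, over 105 only in replicate 1, over 125 only in replicate 2, and over 327 in neither. The domain on chromosome 1 from 10038201 to 10068400 is of the last kind, with peaks of 12, 2.2 and 6.6 kb in replicate 1 and of 2.8 and 22.8 kb in replicate 2.

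G1E cells carried H3K27ac in most of the same regions but over less of their length. G1E replicates 1 and 2 covered medians of 55.4% and 48.1% of a domain, and the pooled G1E peaks covered 63.9% (quartiles 37.9% and 82.4%). Summed over the domains, G1E replicates covered 54.7% and 49.8% of the length and G1E-ER4+E2 replicates 91.5% and 91.1%. In 735 of the 841 domains (87.4%) both G1E-ER4+E2 replicates covered more than both G1E replicates, against 49.1% of all pooled G1E-ER4+E2 peaks. The reverse held in 16 domains (1.9%, against 8.38% of all peaks), and the replicates of the 2 populations overlapped in 90. The domains were selected from the G1E-ER4+E2 side, so a higher cover there is partly given by the choice. All pooled peaks come from that side too, but 79.6% of them were under 10 kb wide. Only 33% of all pooled peaks were at least 80% covered in both G1E-ER4+E2 replicates, against 84.5% of the domains. The part of width and of this replicate cover in the contrast with all peaks was not tested. The lists also differed in enrichment, with a median over all peaks of 2.98 and 3.59 in the G1E-ER4+E2 replicates and of 6.69 and 7.76 in the G1E replicates, and its part in the cover was not tested.

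**Figure D1:**
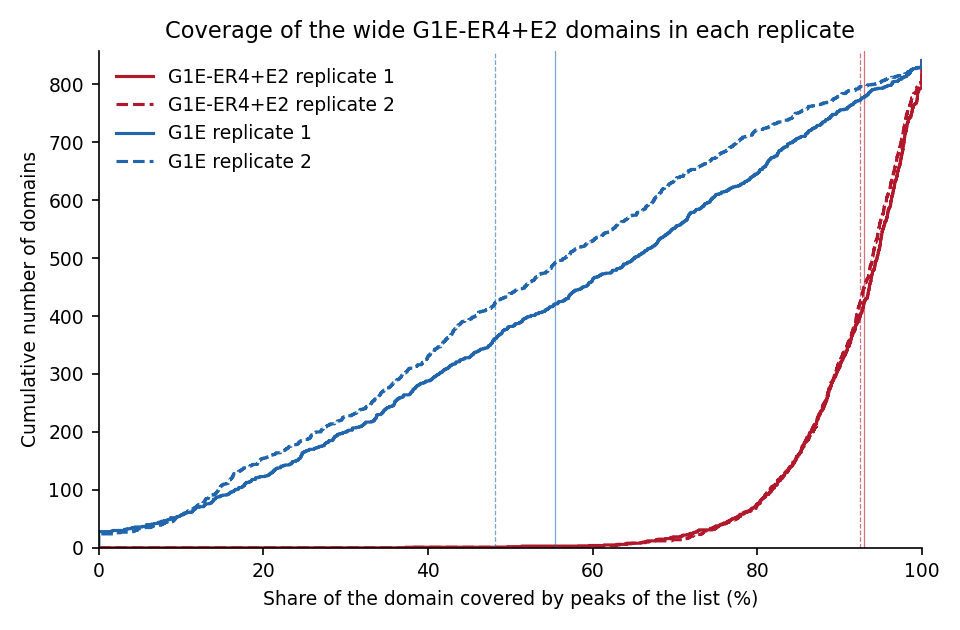
Cumulative number of the 841 wide G1E-ER4+E2 domains (vertical axis) by the share of the domain, in percent, that is covered by peaks of each replicate list (horizontal axis). Thin vertical lines are the medians, 92.9% and 92.5% for the G1E-ER4+E2 replicates and 55.4% and 48.1% for the G1E replicates, and the G1E curves climb almost evenly from 0 to 100% while the G1E-ER4+E2 curves climb mainly above 80%.

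Domains chosen in 1 replicate can be read in replicates that had no part in the choice. The 408 wide domains of G1E-ER4+E2 replicate 1 were covered to a median of 97% by G1E-ER4+E2 replicate 2, and to 71.3% and 61.8% by G1E replicates 1 and 2. The 434 wide domains of G1E-ER4+E2 replicate 2 were covered to 97% by replicate 1, and to 64.2% and 58.7% by the G1E replicates. In the other direction the 237 wide domains of G1E replicate 1 were covered to 92.3% by G1E replicate 2, and to 88.4% and 86.1% by the G1E-ER4+E2 replicates. The 153 of G1E replicate 2 were covered to 98.1% by G1E replicate 1, and to 94.1% and 93.3% by the G1E-ER4+E2 replicates. A wide domain was thus covered more by its own population in each of the 4 choices, and the shortfall in the other population was larger for domains chosen in G1E-ER4+E2 cells. Over the whole genome the lists of G1E-ER4+E2 replicates 1 and 2 covered 163 and 161 Mb, and those of G1E replicates 1 and 2 126 and 113 Mb. The part of these totals in the larger shortfall was not tested.

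The cover by pooled G1E peaks ranged over the whole scale. It was at least 80% in 236 domains, from 50% to under 80% in 287, above 0 and under 50% in 296, and 22 domains had no G1E peak. At least 50% cover was thus found in 523 domains (62.2%), against 46.8% of all pooled G1E-ER4+E2 peaks, and absence of a G1E peak in 2.62%, against 40.3%. Wide peaks have more room to meet another peak than narrow ones, so the last pair of shares says little about the domains. With only the G1E peaks from the median enrichment of their list upward the median cover was 36.9% and 524 of the 841 domains were under 50% covered, against 318 with all G1E peaks. Domains of at least 30 kb from G1E-ER4+E2 replicate 1 or replicate 2 alone were under 50% covered in 89 of 408 and 117 of 434. Across widths the median G1E cover hardly changed, at 63% for domains from 30 to under 40 kb, 65% from 40 to under 60 kb and 62% from 60 to under 100 kb, and it was 73.6% for the 12 domains of 100 kb or more. Enrichment in G1E-ER4+E2 cells went with G1E cover. The median percentile was 88.2 in domains with at least 80% cover, 84.4 from 50% to under 80%, 75.3 under 50% and 58 where there was no G1E peak.

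**Figure D2:**
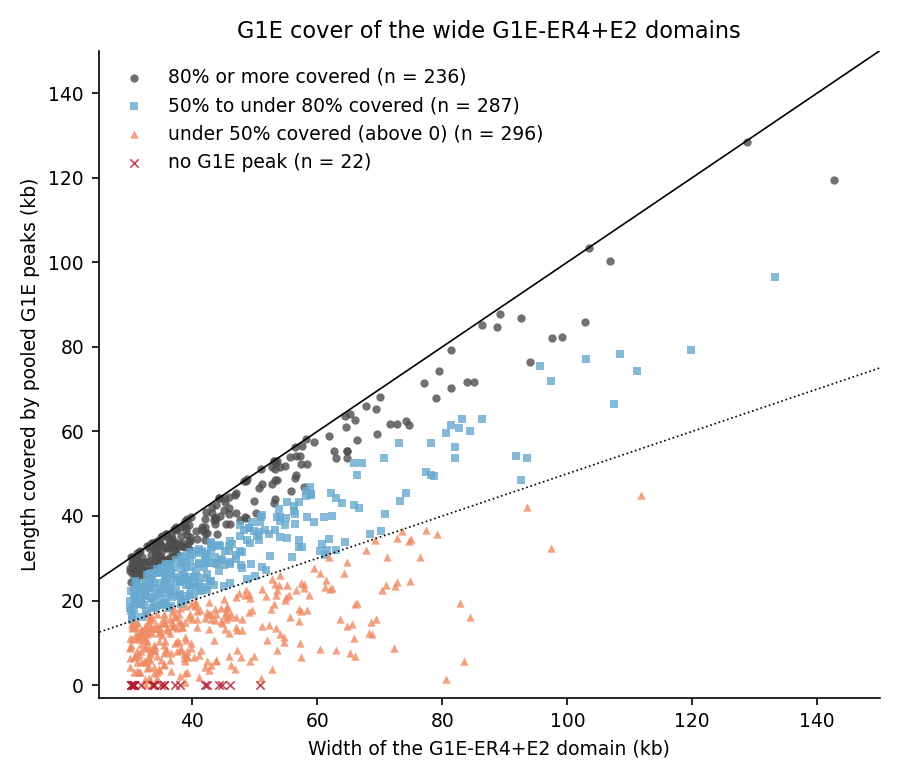
Width of each of the 841 domains in kb (horizontal axis) against the length covered by pooled G1E peaks in kb (vertical axis), with the symbol giving the class of cover. The solid line marks full cover and the dotted line 50% cover, and the 22 domains without a G1E peak lie at 0 on the vertical axis, at widths up to 50.8 kb.

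The 22 domains without a pooled G1E peak were 30.2 to 50.8 kb wide. The nearest G1E peak lay 1.8 to 46.8 kb outside them (median 14 kb), and only 1 of the 22 had a peak in a G1E replicate list. Their cover in the G1E-ER4+E2 replicates was lower than that of the domains at large, with medians of 82.5% and 86.3%. The clearest in the replicates among the 5 first in genome order was the domain on chromosome 1 from 130010001 to 130054200, 44.2 kb wide, of which the G1E-ER4+E2 replicates covered 97.7% and 98.2% and the G1E replicates 0%. The domain on chromosome 2 from 91696401 to 91730200 (33.8 kb) was covered to 79.3% and 78.1% by the G1E-ER4+E2 replicates and to 0% by both G1E replicates. In the other 3 of these 5 domains, the one at 10038201 and the weak ones at 93897201 and 138160401, the G1E-ER4+E2 replicates covered between 57.7% and 89.1% and the G1E replicates nothing. Such domains were fewer in the single replicate lists. Of the 408 wide domains of G1E-ER4+E2 replicate 1, 3 had no peak of G1E replicate 1 and 3 none of G1E replicate 2. For the 434 of G1E-ER4+E2 replicate 2 these counts were 5 and 4.

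At the other end, 30 domains were covered by pooled G1E peaks over their whole length, against 12 by G1E replicate 1 alone and 12 by replicate 2 alone. Among those named here the domain on chromosome 4 from 106584401 to 106687800 was the widest, at 103.4 kb. It lay inside a single pooled G1E peak of 125.8 kb, and it was covered to 100% and 98.3% in the G1E replicates and to 96.7% and 94.8% in the G1E-ER4+E2 replicates. TAL1_3158 lies in it, 44.9 kb from its centre. The domain that holds TAL1_2434, on chromosome 2 from 28447801 to 28479400 (31.6 kb), was covered to 98.7% and 99.4% in G1E and to 100% and 98.7% in G1E-ER4+E2 cells. The other 3 of the 5 first in genome order lay on chromosome 1 from 89515601 to 89566600, on chromosome 2 from 103785201 to 103824000 and on chromosome 4 from 114719801 to 114753000. G1E replicates 1 and 2 covered 97.6% and 91% of the first, 100% and 77.8% of the second and 97.6% and 95.8% of the third. G1E-ER4+E2 replicates 1 and 2 covered 98.4% and 99.2%, 94.8% and 95.4%, and 94% and 78.3% of these in turn. Both G1E replicates thus covered more than both G1E-ER4+E2 replicates in the domain of TAL1_3158 and in the last of these 3, both covered less in the first of these 3, and the replicates of the 2 populations overlapped in the other 2 domains.

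Pooled G1E peaks often lay in a wide domain as a series of separate peaks. In total, 637 domains (75.7%) held 2 or more G1E peaks, against 8.3% of all pooled G1E-ER4+E2 peaks, 182 held 1 and 74 held 5 or more. With only the G1E peaks from the median enrichment of their list upward, 219 domains held 2 or more and the median was 1, so most of these series included G1E peaks below that median. Of the 408 and 434 domains of at least 30 kb in G1E-ER4+E2 replicates 1 and 2 alone, 286 and 312 held 2 or more. Width bears on this count, since 1.63% of the pooled peaks under 10 kb, 26.7% of those from 10 to under 30 kb and 65.3% of those from 30 to under 40 kb held 2 or more G1E peaks. The number grew with width, from a median of 2 peaks in domains from 30 to under 40 kb to 6 in those of 100 kb or more. The G1E-ER4+E2 replicates were themselves broken up in the domains, with 2 or more peaks in 646 and 633 of them, so a count of separate peaks does not by itself separate the populations. The lengths of the pieces differed more. The longest covered stretch had a median of 28.4 and 29.4 kb in the G1E-ER4+E2 replicates and of 13 and 12 kb in the G1E replicates. The domains were chosen as long unbroken peaks in the pool of those G1E-ER4+E2 replicates, so longer stretches there are partly given by the choice.

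The domain on chromosome 12 from 81870001 to 81981200 held the most G1E peaks, 11 in 111.2 kb, of which the longest was 21.2 kb. G1E replicate 1 had 9 peaks there covering 49.3% and replicate 2 had 6 covering 54.3%, against 94.4% in 6 peaks and 98% in 3 peaks in G1E-ER4+E2 replicates 1 and 2. Of 6 domains with 8 G1E peaks each, the first 4 in genome order lay on chromosome 1 from 88400401 to 88512200, on chromosome 2 from 156748801 to 156844400, and on chromosome 5 from 121633801 to 121753600 and from 143783801 to 143875600. G1E peaks covered 40.3%, 78.9%, 66.1% and 59% of these in turn.

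The length that G1E peaks left uncovered added up to 15.4 Mb of the 38.4 Mb. Of this, 8.2 Mb (53.2%) lay at the ends of the domains outside the outermost G1E peak, 6.42 Mb (41.6%) lay between G1E peaks, and 0.797 Mb (5.17%) lay in the domains without a G1E peak. Of the 819 domains with a G1E peak, 431 reached past the G1E peaks at both ends, 302 at 1 end and 86 at neither. In 56 of those 86 the G1E peaks were 2 or more, so that the whole difference lay in the gaps between them. Over the 819 domains the larger end stretch had a median of 5.4 kb (up to 53.2 kb), with 0 counted where there was none. The largest inner gap exists only in the 637 domains with 2 or more G1E peaks. Its median over those was also 5.4 kb (up to 52.8 kb), and it was at least 10 kb in 170 domains.

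**Figure D3:**
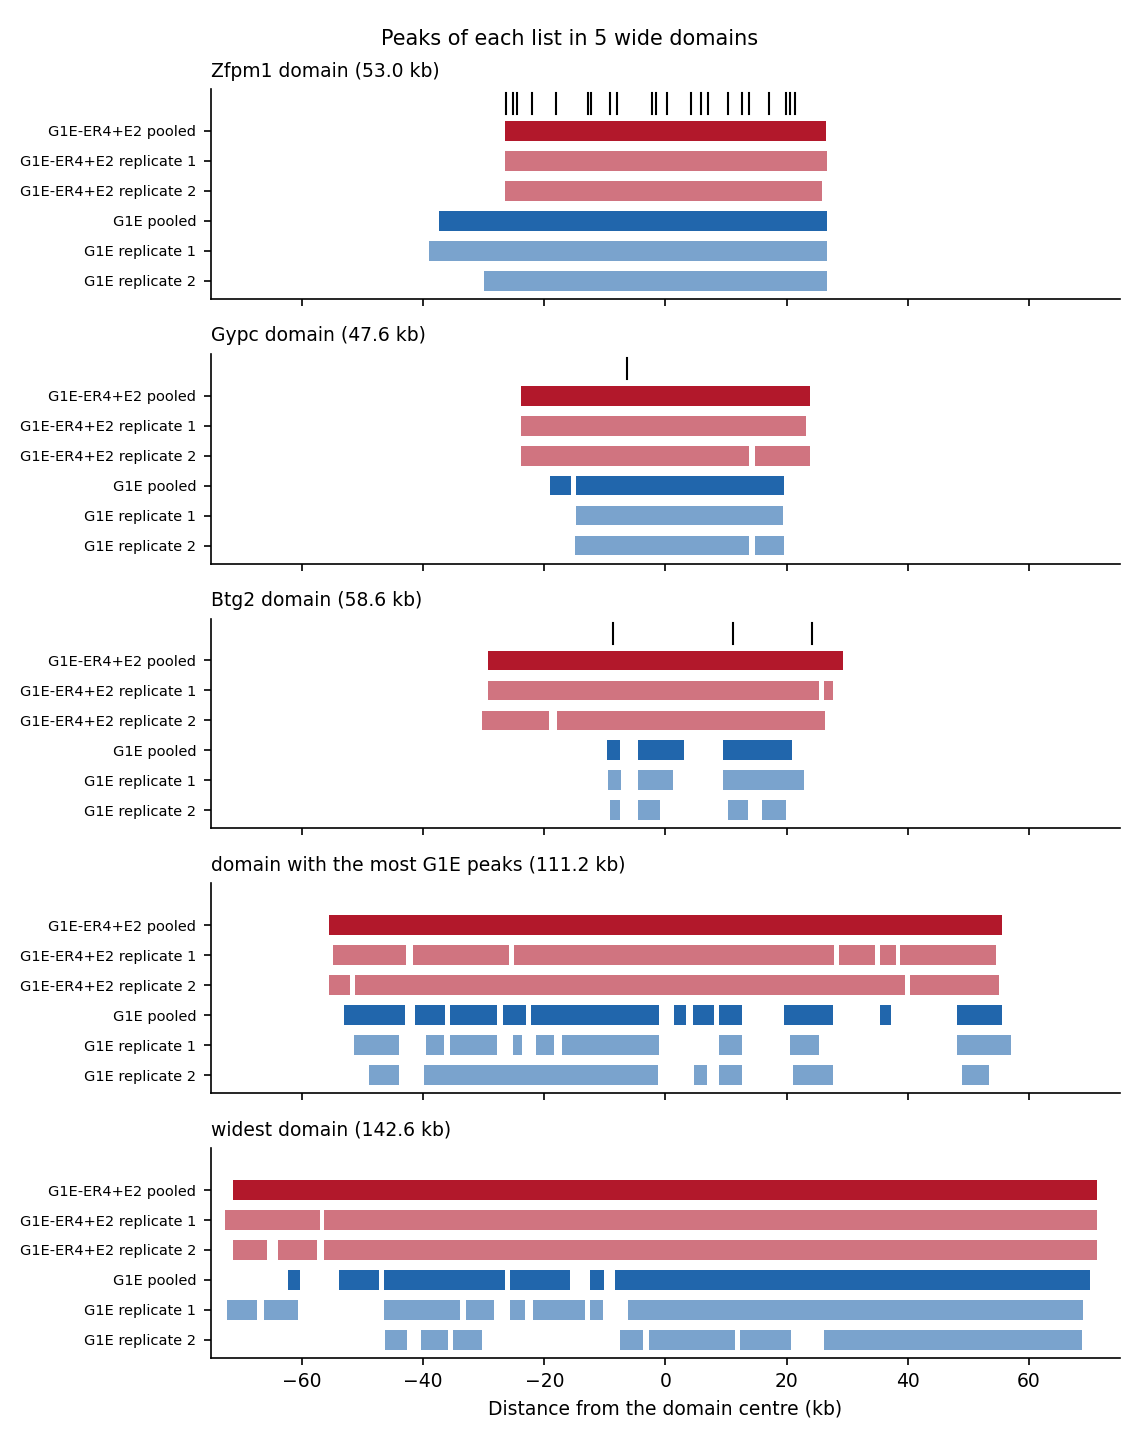
Peaks of the 6 lists around 5 wide domains, by distance from the centre of the domain in kb (horizontal axis), with G1E-ER4+E2 lists in red, G1E lists in blue, replicate lists in a lighter shade and black ticks for tested segments. The Zfpm1 domain is 1 unbroken peak in all lists, the Gypc domain is narrower in G1E, and the Btg2 domain and the domain with 11 G1E peaks break into separate G1E peaks.

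Of the loci with a gene name among the tested segments, Zfpm1 had the domain of highest enrichment. Zfpm1 encodes FOG1, the cofactor through which GATA1 acts at many of its targets. Its domain (chromosome 8, 124806601 to 124859600) was 53 kb wide in the pooled G1E-ER4+E2 list and held 22 tested segments. The peak over it was 53.2 and 52.4 kb wide in the G1E-ER4+E2 replicates and 65.8 and 56.6 kb in the G1E replicates. G1E peaks covered the domain fully and ran on for 10.8 kb past its left end in the pooled list. In this domain H3K27ac was therefore no narrower in the cells without GATA1.

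The Btg2 domain lay mostly outside G1E peaks. Btg2 belongs to a family of antiproliferative genes, and 3 of its tested segments lay in a domain of 58.6 kb on chromosome 1 from 135949201 to 136007800. The G1E-ER4+E2 replicates covered 95.9% and 92.5% of it, with longest peaks of 54.6 and 44.2 kb. The G1E replicates covered 36.5% and 21.5%, and the pooled G1E list had 3 peaks of 2.2, 7.6 and 11.4 kb in it. Uncovered in G1E were 19.6 kb at the left end, 8.4 kb at the right end and 9.4 kb between the peaks. Btg2R3 and Btg2R9 lay in G1E peaks of every list, while Btg2R8, 24.2 kb from the centre, lay in none.

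The Gypc domain was intermediate. Gypc encodes glycophorin C, a membrane protein of red cells, and TAL1_2105 in its intron lies in a domain of 47.6 kb on chromosome 18 from 32684801 to 32732400. The G1E-ER4+E2 replicates covered 98.7% and 97.9% and the G1E replicates 71.8% and 70.6%. Both pooled G1E peaks, 3.4 and 34.4 kb wide, lay within it and left 4.8 and 4.2 kb at its ends, with 0.8 kb between them. The segment was in a peak of all 4 replicates, so the difference lay in the flanks of the domain and not at the segment.

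Tested segments were in few of the domains. Of the 273 segments that the study compiled from enhancer assays of its laboratory, 50 lay wholly inside 26 wide domains, 22 of them in the Zfpm1 domain alone and 3 in the Btg2 domain. GHP3 and GHP4 lay together in a domain of 93.6 kb on chromosome 7 from 71112001 to 71205600, 45.1% of which G1E peaks covered in 6 pieces, and the other 23 domains held 1 each. Of the 50, 46 were in a pooled G1E peak, all 22 of the Zfpm1 domain and 24 of the other 28, against 101 of the 132 segments in narrower G1E-ER4+E2 peaks. The exceptions were GHP2, TAL1_4769, TAL1_1020 and Btg2R8, which lay in peaks of both G1E-ER4+E2 replicates and of neither G1E replicate. Many of the segments share a locus, so they do not sample the domains evenly.

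The domain around TAL1_1020 was almost free of G1E peaks. It was 80.6 kb wide, on chromosome 12 from 29444401 to 29525000. The G1E-ER4+E2 replicates covered 100% and 96.5% of it and the G1E replicates 1.74% and 1.99%, with 1 pooled G1E peak. The domain around TAL1_4769 (chromosome 9, 96126401 to 96172600, 46.2 kb) was covered to 72.7% and 91.3% in G1E-ER4+E2 and to 9.52% and 10.4% in G1E replicates. GHP2 lay in a domain on chromosome 7 from 71061601 to 71102800 with 53.9% G1E cover in 3 peaks. Of the 66 TAL1-bound segments of the transgenic mouse assay, 63 lay in a pooled G1E-ER4+E2 peak, and 18 of these lay in 14 wide domains. The wide domains held 19.2% of the length covered by that list. The complete set of TAL1 sites was not analysed here.

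The 10 widest domains were between 103.4 and 142.6 kb and ranged from unbroken to much divided in G1E cells. In 2 of them a single G1E peak covered nearly everything, namely the one on chromosome 4 described above and the one on chromosome 3 from 60296801 to 60425600. The latter was 128.8 kb wide, with 96.4% and 98.9% cover in the G1E replicates and 100% and 99.8% in the G1E-ER4+E2 replicates. The domain of 106.8 kb on chromosome 8 from 125436201 to 125543000 held 3 pooled G1E peaks with only 6.4 kb between them, and 94% of it was covered. The widest of all, on chromosome 1 from 36861801 to 37004400, was covered to 99.4% and 97.9% in G1E-ER4+E2 and to 80.6% and 57.4% in G1E replicates. There the pooled G1E list had a peak of 78.4 kb and 5 shorter ones of 2 to 20 kb. The domain on chromosome 11 from 86381601 to 86514800 (133.2 kb) had 7 G1E peaks and replicate covers of 94.9% and 96.5% against 67.6% and 71.6%. The lowest G1E cover among the 10 was on chromosome 1 from 88400401 to 88512200, with 93.6% and 89.8% against 41.5% and 37%, and 8 G1E peaks of which the longest stretch within the domain was 14.4 kb. The domain on chromosome 13 from 35833801 to 35942200 had covers of 98% and 96.7% against 65.7% and 51.5%, and the one on chromosome 1 from 136301401 to 136408800 of 93.7% and 84.7% against 60.1% and 46%. In 9 of the 10 both G1E-ER4+E2 replicates were above both G1E replicates, the exception being the domain on chromosome 4.

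**Figure D4:**
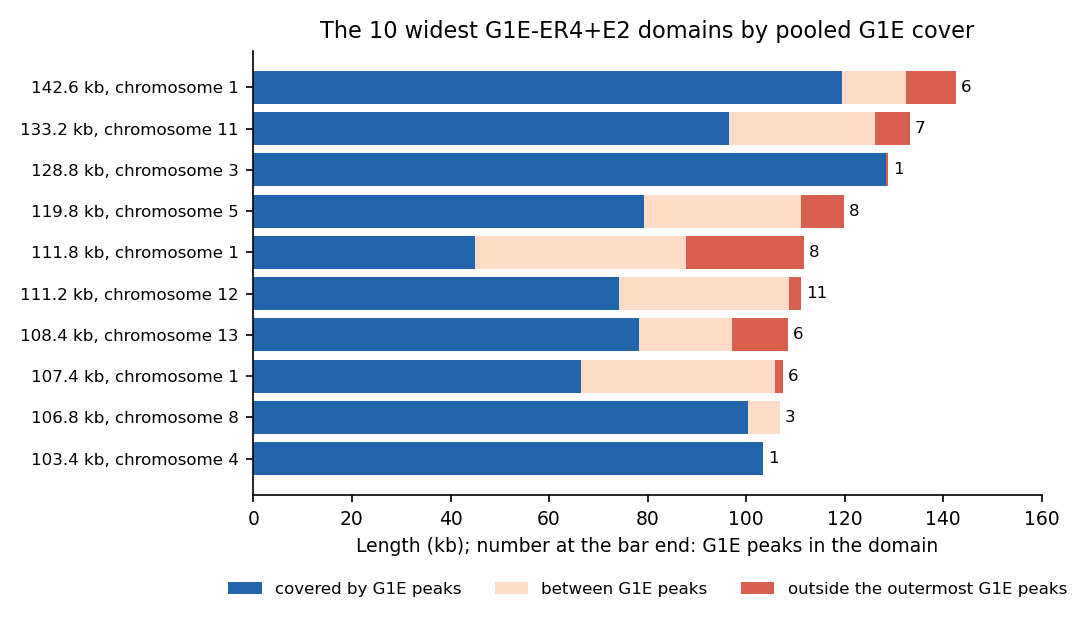
The 10 widest domains as bars of their length in kb (horizontal axis, from 0), divided into the parts covered by pooled G1E peaks, between G1E peaks and outside the outermost G1E peaks, with the number of G1E peaks at the bar end. The cover runs from 40.3% in the domain of 111.8 kb to 100% in the domain of 103.4 kb.

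Read from the G1E side, wide domains were mostly covered in G1E-ER4+E2 cells too. Of the 317 G1E domains of at least 30 kb, 226 were at least 80% covered by pooled G1E-ER4+E2 peaks, 67 from 50% to under 80%, 18 less than that and 6 had no such peak. At least 50% cover thus held in 293 (92.4%), against 64.3% of all G1E peaks, and absence in 1.89%, against 29.7%. G1E-ER4+E2 peaks covered 84.3% of the G1E domains' length, where G1E peaks covered 59.9% of the length of the G1E-ER4+E2 domains. Both G1E-ER4+E2 replicates covered less than both G1E replicates in 157 of the 317 (49.5%), against 37.6% of all G1E peaks. Here too the width gives more room to meet another peak, and the choice on the G1E side partly gives the difference between the populations. By at least 1 bp, 182 of the 317 G1E domains (57.4%) overlapped 179 wide G1E-ER4+E2 domains (21.3%). With the wide domains of G1E replicate 1 or replicate 2 alone, 135 of 237 and 107 of 153 overlapped a wide G1E-ER4+E2 domain. The widest G1E peak was from 10 to under 30 kb in 412 of the 841 domains and under 10 kb, or absent, in 250.

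**Figure D5:**
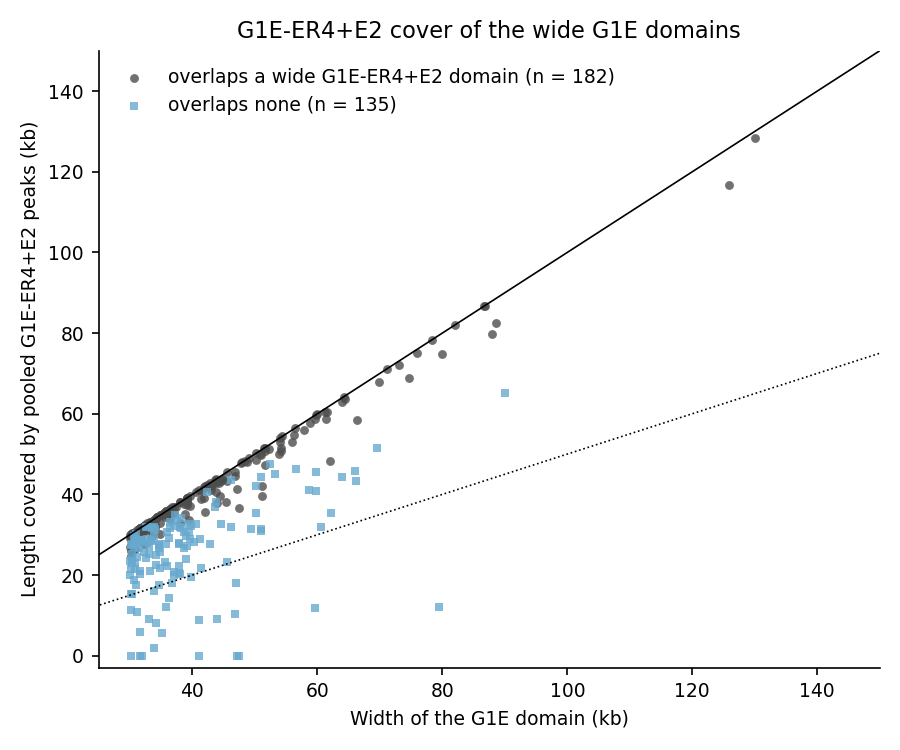
Width of each of the 317 wide G1E domains in kb (horizontal axis) against the length covered by pooled G1E-ER4+E2 peaks in kb (vertical axis), with symbols for the 182 that overlap a wide G1E-ER4+E2 domain and the 135 that do not. The solid line marks full cover and the dotted line 50% cover, and most points lie near the solid line, with a median cover of 93.7%.

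The 5 widest G1E domains were 88 to 130 kb wide and were each covered over most of their length by pooled G1E-ER4+E2 peaks. The widest, on chromosome 3 from 60297201 to 60427200, is the counterpart of the domain of 128.8 kb and was 98.8% covered. Those on chromosome 4 from 106573801 to 106699600 and from 133220401 to 133309000 and on chromosome 7 from 142726601 to 142814600 were covered to 92.7%, 93% and 90.7%. The one on chromosome 8 from 125155801 to 125245800 had the lowest cover among the 5, 72.4%. It was covered to 100% and 94.4% in the G1E replicates and to 65.1% and 57.1% in the G1E-ER4+E2 replicates, where 7 pooled peaks of at most 22.2 kb lay in it and none reached 30 kb. Of the 6 G1E domains without a pooled G1E-ER4+E2 peak, the first 5 in genome order are given here. In those on chromosome 4 from 89119801 to 89160800 (41 kb), on chromosome 6 from 143776601 to 143823800 (47.2 kb) and on chromosome 11 from 33944801 to 33975000 (30.2 kb) both G1E-ER4+E2 replicates covered 0% and both G1E replicates at least 93.7%. In the domain on chromosome 5 from 76218001 to 76250000 (32 kb) the G1E-ER4+E2 replicates covered 7.5% and 0%.

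The last of these 5 goes against the replicate lists. On chromosome 1 from 193381001 to 193412600 (31.6 kb) the pooled G1E-ER4+E2 list had no peak, but G1E-ER4+E2 replicates 1 and 2 covered 86.1% and 90.5%, much like the G1E replicates with 91.1% and 86.7%. Absence of the mark there is therefore not shown by the replicates. Pooled lists otherwise held nearly all wide replicate peaks of their cells, with 2 of 408 and 2 of 434 missing from the G1E-ER4+E2 pool and 2 of 237 and 1 of 153 from the G1E pool. Each of the rest was at least 80% covered by its pool.

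The limit of 30 kb cuts through a continuous range. Of the 9 domains that were exactly 30 kb wide, the first 3 in genome order lay on chromosome 2 from 61563801 to 61593800 and from 166794001 to 166824000, and on chromosome 5 from 104181401 to 104211400. Their G1E cover was 30%, 37.3% and 92%. The first 3 in genome order among the 14 peaks of 29.8 kb, just under the limit, were on chromosome 1 from 58534201 to 58564000 and on chromosome 2 from 35029401 to 35059200 and from 154611401 to 154641200, with G1E covers of 22.8%, 69.8% and 45.6%. Peaks from 10 to under 30 kb had a median G1E cover of 54.8%, and 54.1% of them were at least 50% covered.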

How the data were processed

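H3K27ac ChIP-seq (antibody Ab4729) had been done in 2 G1E and 2 G1E-ER4+E2 samples. The submitters' processing notes name bcl2fastq 1.8.4, Bowtie 1.0.0, SICER 1.1 and the build mm9, with no roles. The control and the way of pooling are not given in the sources used here. The authors deposited 1 list of peaks per replicate and 1 per pooled population, with starts, ends, the fold enrichment (a linear ratio) and, per peak, its p-value and its q-value. The deposited q-values were at most 0.01. The lists hold no counts, so the depth is unknown.

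Cover was the share of the length of a domain lying in peaks of another list, and a peak was counted in a domain from 1 bp of overlap. Enrichment was ranked within its list only. The members and lists were chosen with earlier results of these data known, so no test was made, and the comparison of domains of 1 replicate with the other replicates was added after the data had been seen. Named domains were the 10 widest, the 5 with the lowest and the 5 with the highest G1E share, the 5 with most G1E peaks, the 3 of highest and of lowest enrichment, the 3 just above and below 30 kb, those with a gene-named segment, 2 or more tested segments or the Gypc segment, the 5 widest G1E domains and the 5 G1E domains with the lowest G1E-ER4+E2 share. Ties were taken in genome order. The domains of GHP2, TAL1_4769 and TAL1_1020 and the longest run were named after their values were seen. Positions of tested segments and primers were taken from the paper's supplement, and positions are counted from 1. No mm9 sequence or annotation was used, so genes and sequences of the domains are not given beyond the names of segments, and the cells were not checked against marker genes. Interval calculations were tested on simulated data. Calculations were made in Python 3.11.15 with pandas 2.3.3, NumPy 2.4.6 and SciPy 1.17.1, and Matplotlib 3.10.9 drew the figures.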

Additional observations from a re-analysis of the deposited data

How the results depend on the processing

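The 841 wide G1E-ER4+E2 domains became 408 to 434 and the 317 G1E domains 153 to 237 when a replicate was left out (the list of the other alone). They became 1152 and 467 when peaks were joined over gaps of up to 1000 bp, and joining up to 600 bp changed nothing, since no gap is that short. At 20 kb there were 1873 and 858 domains and at 40 kb 414 and 124. The share of covered length in wide domains was 10.5% to 11.4% without a replicate, 31.6% at 20 kb and 11.8% at 40 kb. The median G1E cover was 48.1% to 76.8% without a replicate, and 36.9% with only the G1E peaks from the median enrichment upward, which by construction are fewer. With those peaks the median number inside a domain was 1, domains under 50% covered were 524, domains with 2 or more peaks were 219, and the end stretches made 67.9% of the uncovered length. Without a replicate these were 89 to 439 domains, 286 to 656 domains and 55.8% to 57.1%. The low counts of domains are those of the G1E-ER4+E2 replicate lists, which hold fewer domains and a higher median G1E cover. At 20 kb and 40 kb they were 737 and 150 domains, 1159 and 358 domains, and 58% and 48.8%, and the median number of G1E peaks was 3 at 40 kb. Domains under 25% covered were 122 and under 80% covered 605. The median cover by G1E-ER4+E2 replicates was 91.8% as their mean, 92.5% to 92.9% in either replicate, 90.4% at 20 kb and 92.3% at 40 kb. It was 97% and 97% for domains of 1 replicate in the other, a comparison chosen after seeing the data. G1E domains overlapping a wide domain were 135 of 237 and 107 of 153 with G1E replicate 1 or 2 alone. With G1E-ER4+E2 replicate 1 or 2 alone they were 138 and 136 of 317. At 20 kb they were 542 of 858 and at 40 kb 66 of 124. The median percentile was 79.8 at 20 kb and 83.7 at 40 kb, and tested segments inside were 85 at 20 kb. The cause of changes for which none is given was not tested. Under the other settings counts stayed within 1.5 times and values within 1 SD of the replicates. No paired analysis was possible because no result comes from a test and the labels tie the replicate numbers to no shared batch.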
